A study of Mus musculus with 346 samples.

Results

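AW112010, Il33, Fgb, Ly6d and Mal2 are 5 of the 25139 genes analysed in single cells from the mouse mammary gland, and they were followed here because almost no read of them was found before puberty while pubertal cells held many. They were chosen by their summed levels at pre-puberty and puberty and their share of pubertal cells, so the rise between these stages is given as a description only. The cells came from FVB/NJ female mice, an inbred strain with no allele or treatment added, at pre-puberty (2 weeks of age, 144 cells), puberty (4.7 to 4.9 weeks, 136 cells) and adulthood (10 weeks, 66 cells). The design text names 8 mice per stage, but the labels tie no cell to a mouse, so each stage was treated as 1 sample and no test was made between stages. Cells lacking markers of red blood cells, leukocytes and vessels (Ter119, CD45 and CD31) were sorted as epithelium. The paper also stained for CD24 and CD29, and its total epithelium on another platform was CD24-positive. Each cell was then caught in its own chamber of a Fluidigm C1 chip, where polyadenylated RNA was amplified. A coverage minimum of 100000 reads on the analysed genes and 1500 genes detected kept 116, 119 and 44 cells. The kept cells had median depths of 296570, 574145 and 334209 reads in the order of age.

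Before the levels are read, the makeup of the stages has to be given. Of 15 epithelial markers the median pre-pubertal cell had 0, the median pubertal cell 11 and the median adult cell 7.5. Of 14 markers of Schwann cells, the glia of peripheral nerves, the medians were 11, 1 and 1. The labels call all of these cells epithelium, but only 7 of 116 pre-pubertal cells had 5 or more of the 15 epithelial markers. Several of these markers, such as Krt8 and Krt18, are luminal genes. Of 15 basal markers the medians were 3, 2 and 7, and of 10 fibroblast markers 4, 1 and 1. The paper describes the pre-pubertal cells as basal-like epithelium. Their cell type was not tested here. In summed libraries, fewer luminal cells and less RNA per luminal cell cannot be told apart.

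The mammary duct is a bilayer of basal, contractile cells around luminal cells. Luminal cells fall broadly into mature luminal cells, which sense hormones through the oestrogen receptor (Esr1) and the progesterone receptor (Pgr), and luminal progenitors, which express Kit and Elf5 and lean towards milk secretion. Puberty is the time at which ovarian hormones drive the duct to grow and branch. The 5 genes have unlike products. AW112010 is annotated as a long non-coding RNA and is known from immune cells as a target of interferon and inflammatory signals. Il33 encodes a cytokine of the interleukin-1 family that is kept in the nucleus and acts on neighbouring cells once it is released. Fgb encodes the beta chain of fibrinogen, the clotting protein made mainly by the liver. Ly6d encodes a small lipid-anchored surface protein of the Ly6 family, and Mal2 a membrane protein that carries cargo across polarised epithelial cells.

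On GRCm38.p6, a patch release of the mm10 assembly, the genes lie on 3 chromosomes. AW112010 (Entrez 107350) spans bases 11047612 to 11050566 of chromosome 19, and Il33 (77125) spans 29925113 to 29960718 of the same chromosome. Ly6d (17068) lies at 74762056 to 74763567 and Mal2 (105853) at 54571366 to 54602846 of chromosome 15. Fgb (110135) lies at 83042246 to 83049863 of chromosome 3. RefSeq promoter windows were at hand for AW112010, Il33 and Fgb, but not for Ly6d and Mal2. The 250 bases before the start of each of these 3 genes are shown because the genes were chosen for a common pattern, and a reader may want to see what their upstream sequence shares. Each is read 5′ to 3′ on the gene's own strand, and capitals mark the matches to 10 motifs searched on both strands.

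AW112010, chr19:11050567-11050816, minus strand: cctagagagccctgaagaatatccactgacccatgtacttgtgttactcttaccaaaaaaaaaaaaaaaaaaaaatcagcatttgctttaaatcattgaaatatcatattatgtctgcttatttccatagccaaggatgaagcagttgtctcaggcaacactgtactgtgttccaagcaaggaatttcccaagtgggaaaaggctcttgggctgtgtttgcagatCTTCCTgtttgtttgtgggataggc

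Il33, chr19:29924863-29925112, plus strand: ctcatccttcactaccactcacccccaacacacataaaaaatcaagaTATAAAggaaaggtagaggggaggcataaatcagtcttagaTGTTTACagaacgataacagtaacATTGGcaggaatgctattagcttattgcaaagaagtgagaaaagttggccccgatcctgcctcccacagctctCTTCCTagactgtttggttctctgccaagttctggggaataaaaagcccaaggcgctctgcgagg

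Fgb, chr3:83049864-83050113, minus strand: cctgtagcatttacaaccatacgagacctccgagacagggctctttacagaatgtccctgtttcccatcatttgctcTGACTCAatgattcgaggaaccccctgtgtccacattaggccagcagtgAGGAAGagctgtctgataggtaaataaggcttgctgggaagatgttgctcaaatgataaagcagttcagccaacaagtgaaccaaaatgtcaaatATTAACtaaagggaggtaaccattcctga

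The ETS motif AGGAAG was the one found in all 3 windows. It stood 25 to 20 bases before the start of AW112010 (on the other strand, as CTTCCT), 65 to 60 bases before that of Il33 (also on the other strand) and 124 to 119 bases before that of Fgb. Since 29.5% of 32851 mouse windows of the same length hold it, such a match is common. Il33 also had the TATA box TATAAA at 203 to 198 bases, the forkhead motif TGTTTAC from 162 bases, and the CCAAT box on the other strand at 138 to 134 bases, which are held by 12.4%, 3.17% and 33.8% of all windows. A further annotated start of Il33 has TATAAA 29 to 24 bases before it. Fgb had the AP-1 motif TGANTCA at 173 to 167 bases and the HNF1 motif GTTAAT on the other strand at 29 to 24 bases, held by 6.75% and 6.43% of windows. These letters did not overlap each other. The GC box GGGCGG (32.7% of windows), the GATA motif AGATAA (9.99%), the nuclear receptor motif AGGTCA (14.0%) and the steroid receptor motif TGTTCT (16.1%) matched none of the 3 windows. GC content was 39.2%, 45.2% and 44.8%, against a median of 52.4% over all windows. A match of letters is a description and not a binding site.

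At puberty all 5 genes were abundant, and at pre-puberty they were near absent. Each level is the count of a gene in the pooled reads of a stage, scaled to 1000000 reads (CPM), with exact Poisson intervals at 95%. AW112010 had no pre-pubertal read, reached 3337 CPM (3323 to 3351) in pubertal cells and stood at 1415 CPM (1398 to 1432) in adult cells. Il33, also without a pre-pubertal read, was at 1380 CPM (1371 to 1389) in pubertal and 113 CPM (109 to 118) in adult cells. Fgb had 1 pre-pubertal read, or 0.0246 CPM, then 1061 CPM (1053 to 1069) and 241 CPM (234 to 248). All 3 of these genes were highest at puberty and held an intermediate level in the adult. Ly6d took another course, with no pre-pubertal read, 1005 CPM (997 to 1012) in pubertal cells and 1257 CPM (1241 to 1273) in adult ones. Mal2 had 431 pre-pubertal reads, or 10.6 CPM (9.61 to 11.6), and went to 2468 CPM (2457 to 2480) and then 294 CPM (286 to 302). The intervals cover the counting of reads only. Amplified copies of a molecule were counted separately, so the intervals are too narrow for molecules. They do not cover the spread between cells, mice, sorts or chips.

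Per base of transcript these were among the foremost genes of the pubertal cells, which the choice by a high pubertal level favours. Ribosomal protein and mitochondrial genes were left out of the ranking. In reads per 1000 bases per 1000000 reads (RPKM), AW112010 stood at 4306 and ranked 3 of 18017 genes with a pubertal read. Ly6d (1454 RPKM) ranked 25, Mal2 (889 RPKM) 54, Fgb (674 RPKM) 81 and Il33 (530.2 RPKM) 111. In the adult, AW112010 and Ly6d ranked 30 and 31 of 13869 genes at 1825 and 1819 RPKM, side by side. Fgb (153.1 RPKM), Mal2 (106 RPKM) and Il33 (43.6 RPKM) fell back to ranks 611, 911 and 2088. On the per-length scale the order at puberty was therefore AW112010, Ly6d, Mal2, Fgb, Il33, and the adult differed in that Fgb preceded Mal2.

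A limit of 3 counts was set for a gene without a read over the 116 kept pre-pubertal cells. By this limit, pubertal levels were at least 45268-fold higher for AW112010, 18720-fold for Il33 and 13627-fold for Ly6d. These bounds cover counting error in kept cells only. Pre-pubertal cell 77, just under the coverage minimum with 99165 reads, held 15 reads of Il33 and 2 of AW112010. For Mal2 the ratio was 233 (counting interval 212 to 257). The 1 read of Fgb gives no firm ratio. Among genes at 100 CPM or more at puberty that were detected in 50% or more of thinned cells, these 5 had the largest log2 ratios over pre-puberty, from 9.38 for AW112010 to 7.31 for Mal2 after 5 CPM was added to each value. The next in order lay just outside: the oestrogen-induced growth factor gene Areg at 7.17 with no pre-pubertal read, Wfdc2 at 6.66 with 106 reads, and the prolactin receptor gene Prlr at 6.32 with 1290 reads. Near absence before puberty was rare among genes of this level, since 16 of 2107 genes at 100 CPM or more at puberty (0.759%) had 1 pre-pubertal read or none. Of all 9869 genes compared, 24% were higher at puberty by a log2 ratio of 1, 7.5% by 2 and 2.3% by 3, and 21.4% were lower by 1. The choice used that contrast, and nothing is read from it.

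**Figure D1:**
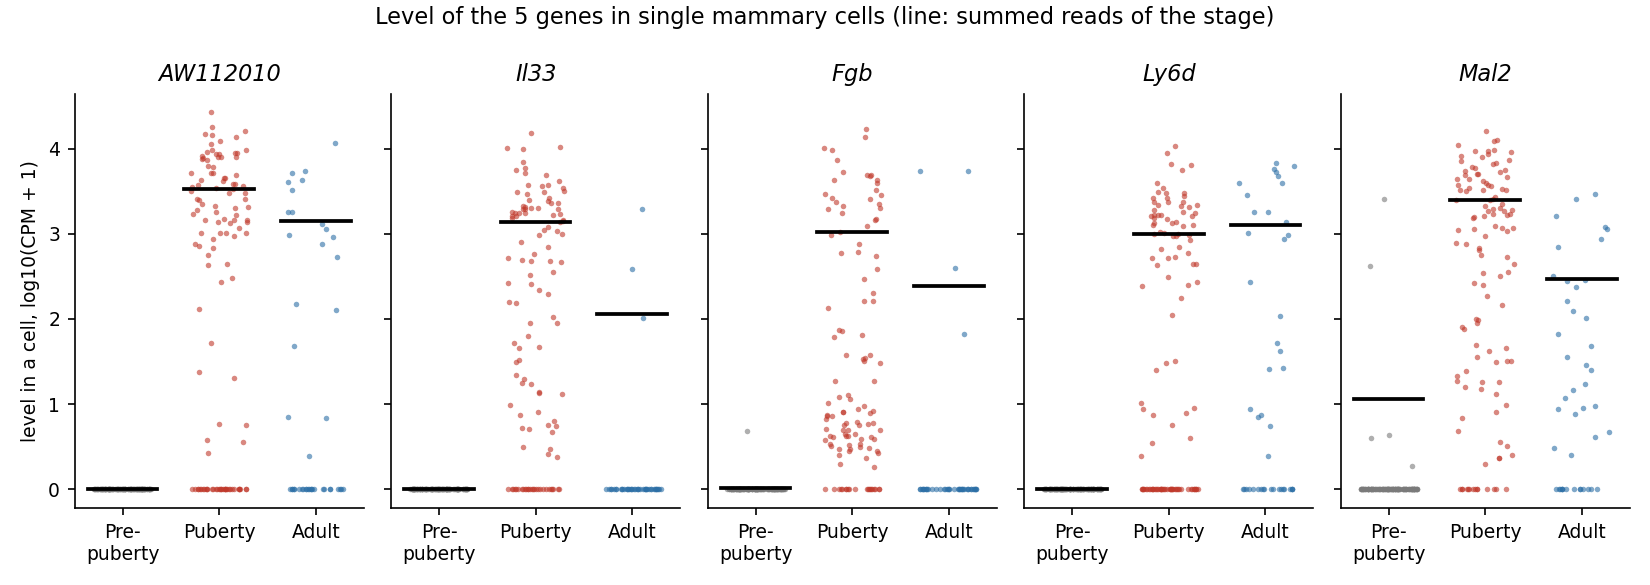
Level of each gene in every kept cell, as log10(CPM + 1) on the vertical axis, with 116 pre-pubertal cells in grey, 119 pubertal cells in red and 44 adult cells in blue. Bars mark the level of the summed reads, which is 3337, 1380, 1061, 1005 and 2468 CPM at puberty in the order of the panels. The pubertal Fgb cells form a band below 10 CPM in addition to the cells near 1000 CPM and above.

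The summed levels hide a wide spread between cells. At puberty AW112010 ranged from 0 to 26631 CPM with a median cell at 1341 CPM, and Mal2 from 0 to 16175 CPM with a median at 1077 CPM. Il33 ranged from 0 to 15233 CPM with a median of 220.3 CPM. For Ly6d and Fgb the median cell was low, at 31.1 and 6.96 CPM, while the highest cells reached 10669 and 16777 CPM. In the adult the median cell had no read of AW112010, Il33 or Fgb, and 6.20 CPM of Ly6d and 9.65 CPM of Mal2. The highest adult cells still reached 11604 CPM of AW112010, 1953 of Il33, 5470 of Fgb, 6762 of Ly6d and 2939 of Mal2, so the strongest adult carriers lay within the range of pubertal ones.

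Shares of cells were compared after each cell had been thinned at random to 100000 reads, as deeper cells detect more genes, and are given with exact binomial intervals at 95%. At puberty Mal2 was detected in 96 of 119 cells (80.7%, 72.4 to 87.3), Il33 in 84 (70.6%, 61.5 to 78.6) and AW112010 in 79 (66.4%, 57.2 to 74.8). Fgb was found in 67 (56.3%, 46.9 to 65.4) and Ly6d in 65 (54.6%, 45.2 to 63.8). Neighbours in this order had overlapping intervals. Without thinning the same genes were found in 105, 92, 84, 99 and 71 pubertal cells. In the adult, Mal2 was detected in 25 of 44 thinned cells (56.8%, 41.0 to 71.7), Ly6d in 23 (52.3%, 36.7 to 67.5) and AW112010 in 18 (40.9%, 26.3 to 56.8). Fgb was present in 4 (9.09%, 2.53 to 21.7) and Il33 in 3 (6.82%, 1.43 to 18.7), so these genes became rare while Ly6d did not. At pre-puberty 0 of 116 thinned cells had AW112010, Il33, Fgb or Ly6d, and by the limit of 3 counts used for a count of 0 this allows a share of up to 2.59% (3.13% by the exact binomial interval). Mal2 was found in 2 of them.

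Counting only cells above 40 RPKM, the level at which the study called Cd55 present, gave a stricter view. AW112010 passed in 77 pubertal cells (64.7%) and 17 adult cells (38.6%), and Ly6d in 61 (51.3%) and 18 (40.9%). Mal2 passed in 75 (63.0%) and 13 (29.5%), and Il33 in 64 (53.8%) and 2 (4.55%). Fgb dropped most at puberty, from 56.3% of thinned cells to 41 cells (34.5%), with 4 adult cells (9.09%). The drop matches the band in the plot of single cells: 46 pubertal cells had an Fgb level above 0 but under 10 CPM and 20 had none, while 27 had 1000 CPM or more. Between 5 and 13 pubertal cells lay in the same low range for the other 4 genes. In the adult no cell had a low level of Fgb, and 40 of 44 had no read at all. The source of the low Fgb reads at puberty was not tested.

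**Figure D2:**
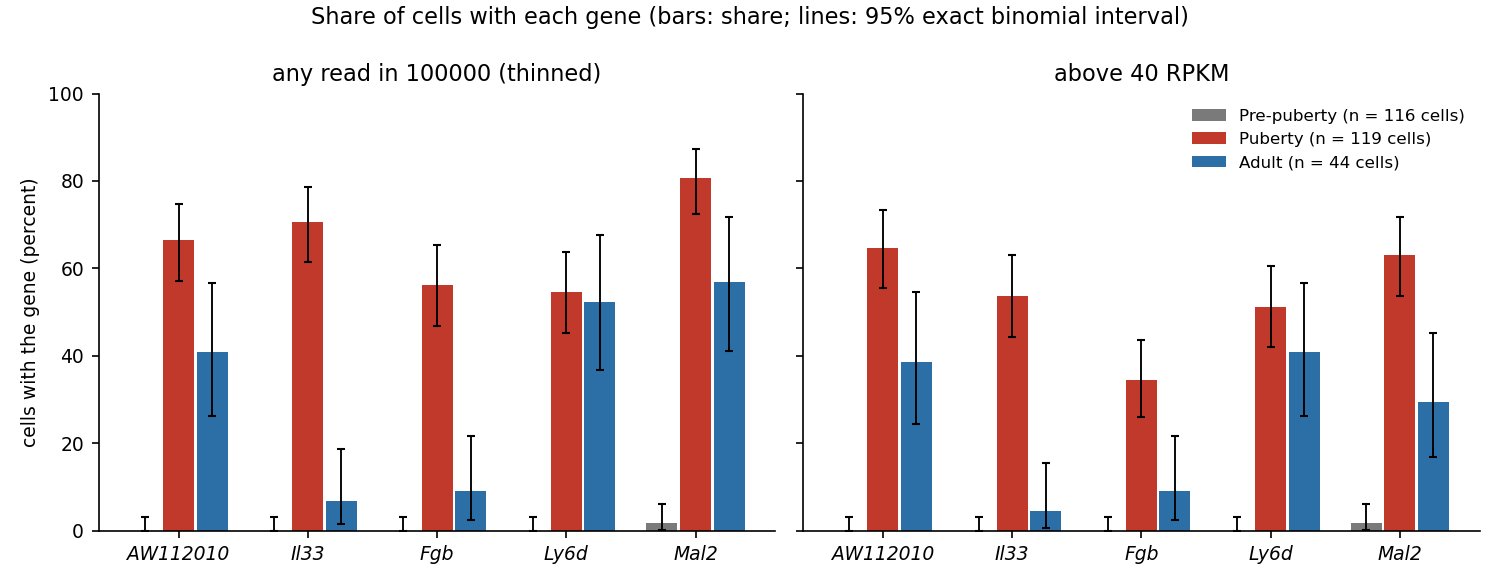
Percent of cells with each gene at pre-puberty (grey, n = 116 cells), puberty (red, n = 119) and adulthood (blue, n = 44), by any read after thinning to 100000 reads on the left and by more than 40 RPKM on the right. Lines are 95% exact binomial intervals for counting error. Il33 and Fgb stand at 6.82% and 9.09% in the adult on the left, while Ly6d stands at 54.6% at puberty and 52.3% in the adult.

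The adult level was not used to choose the genes, and here they parted. Their high pubertal level was used, however, and it favours a high ratio of puberty over adult, so the ratios are given as a description. Over all cells of a stage, Mal2, Il33, Fgb and AW112010 were higher at puberty than in the adult, and Ly6d was at a like level. The log2 ratio of puberty over adult, with 5 CPM added, was 3.55 for Il33 (12.2-fold, counting interval 11.6 to 12.7), 3.05 for Mal2 (8.40-fold, 8.18 to 8.64), 2.11 for Fgb (4.40-fold, 4.27 to 4.53) and 1.24 for AW112010 (2.36-fold, 2.33 to 2.39). For Ly6d it was -0.32, a ratio of 0.799 (0.787 to 0.811). Thus 4 of the 5 genes exceeded a log2 ratio of 1, against 28.4% of the 9462 genes that reached 10 CPM at either stage, 3 exceeded 2, against 9.75%, and 2 exceeded 3, against 1.74%. Among genes at 100 CPM or more at puberty, which carry a part of that choice, 25.7% exceeded 1, 8.12% exceeded 2 and 2.42% exceeded 3. The median of all genes was 0.10.

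Single cells carried much of the adult signal. One adult cell, cell 41, gave 94.3% of the adult Il33 reads, 45.0% of those of AW112010 and 27.6% of those of Ly6d. Without it the adult levels were 6.80 CPM for Il33, 824 for AW112010 and 963 for Ly6d. Cell 50 gave 52.1% of the adult Fgb reads, and without it Fgb stood at 118 CPM. Cell 43 gave 30.5% of those of Mal2. Adult Il33 was found in cells 41, 45 and 1, at 1953, 385 and 101 CPM, with 6, 5 and 4 of the 10 mature luminal markers described next. Adult Fgb was found in cells 50, 7, 41 and 54, at 5470, 5447, 397 and 65.9 CPM, and cells 50 and 7 each had 11 of 15 basal markers. At puberty the strongest cell gave from 5.38% of the reads for Mal2 to 12.3% for Fgb. With the strongest cell of each stage left out the ratios of Il33, AW112010 and Fgb were larger, at log2 values of 6.76, 1.91 and 2.94. The Ly6d ratio of -0.32 is smaller than the shift that 1 cell makes to the adult level, so no direction is given for it.

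To see which epithelial cells carried the genes, pubertal and adult cells were ordered by the number of mature luminal markers detected out of 10 (Pgr, Esr1, Foxa1, Prlr, Cited1, Areg, Wnt4, Tnfsf11, Prom1 and Tbx3). None of the 5 genes is on this list. At puberty 31 cells had 0 to 2 of the markers, 25 had 3 or 4, and 63 had 5 or more. AW112010 exceeded 40 RPKM in 4, 13 and 60 cells of these groups, Il33 in 1, 11 and 52, and Ly6d in 2, 11 and 48. For these genes the number of cells was larger with each step. Fgb was found in 1, 2 and 38 cells, and thus almost solely in the group with most markers. Mal2 was the least selective, with 9, 15 and 51 cells.

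Levels followed the same order. AW112010 went from 93.2 CPM in cells with the fewest markers to 2230 and then 5279 CPM, and Il33 from 9.47 to 833 and 2226 CPM. Fgb was at 5.52, 11.9 and 1914 CPM, a step that came only at 5 markers or more. Of its 72608 pubertal reads, 72361 were in these 63 cells. Ly6d was at 100.4 CPM in cells with the fewest markers, then 1078 and 1423 CPM. Mal2 stood at 1103 CPM even in cells with the fewest markers, and at 2661 and 3074 CPM in the others. Single cells weighed on the groups with fewer markers: without the strongest cell, the group with the fewest had 24.8 CPM of AW112010, 5.73 of Il33, 3.51 of Fgb, 30.1 of Ly6d and 704 of Mal2. The middle group then had 336 CPM of Il33 and 602 of Ly6d. The order of the 3 groups was unaltered for each gene. Across 119 pubertal cells, Spearman's rho of the level with the marker number was 0.68 for AW112010, 0.63 for Il33, 0.53 for Ly6d, 0.51 for Fgb and 0.43 for Mal2. With the number of luminal progenitor markers it was -0.50, -0.44, -0.37, -0.28 and -0.23 in the same order. Across 44 adult cells, rho with the mature luminal marker number was 0.73 for AW112010 and 0.74 for Ly6d. It was lower for Fgb (0.31), Il33 (0.21) and Mal2 (0.10). All points come from the same libraries, and thinned counts were used on both sides.

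**Figure D3:**
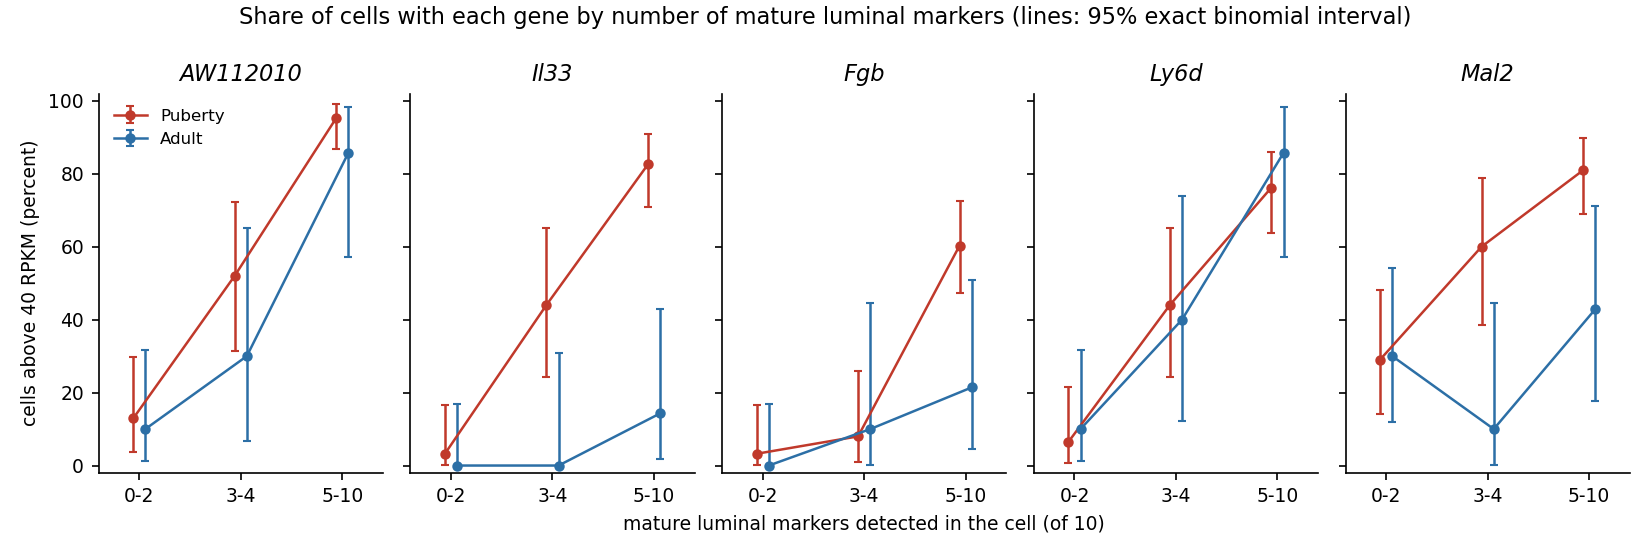
Percent of cells above 40 RPKM for each gene, by the number of mature luminal markers detected in the cell, at puberty (red, 31, 25 and 63 cells) and in the adult (blue, 20, 10 and 14 cells). Points are shares and lines 95% exact binomial intervals for counting error. AW112010 and Ly6d climb at both stages, whereas Il33, Fgb and Mal2 climb at puberty and stay below 50% in the adult.

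Single hormone receptors gave the same picture at puberty. Of 30 pubertal cells with a thinned read of Pgr, 28 were above 40 RPKM for AW112010 and 27 for Il33, against 49 and 37 of the 89 cells without. Ly6d was found in 23 of the 30 and 38 of the 89, Mal2 in 25 and 50, and Fgb in 15 and 26. Foxa1, a pioneer factor for the oestrogen receptor, split Fgb further, with 33 of 58 cells with Foxa1 and 8 of 61 without. In contrast, of 14 pubertal cells with Kit, 3 had AW112010, 2 Il33, 1 Fgb and 3 Ly6d, but 9 had Mal2. Among 14 pubertal cells with 5 or more luminal progenitor markers, Mal2 was above 40 RPKM in 8 and stood at 2714 CPM (1712 without cell 24, with a median cell at 295 CPM), while the other genes were found in 0 to 2 cells. In the adult, 11 of 17 cells with Pgr had AW112010 and 11 had Ly6d, while 1 had Il33, 2 had Fgb and 6 had Mal2. Of the 27 adult cells without Pgr, 6 had AW112010, 7 Ly6d, 1 Il33, 2 Fgb and 7 Mal2.

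Clusters made without the 5 genes were then examined. Ward clustering of the pubertal and adult cells on the 1000 most variable genes gave 6 clusters. Clusters 1 (25 pubertal and 9 adult cells) and 3 (28 and 2) had median counts of 5 and 6 of 10 mature luminal markers and 1.5 and 0 of 15 basal ones, and are called mature luminal-like. Genes of cell division (Nuf2, Hmmr, Plk4 and Racgap1) stood among those that set cluster 3 apart. Cluster 5 (14 and 13 cells) was basal-like, with 12 of 15 basal markers in the median cell, and cluster 6 (6 and 7 cells) was luminal progenitor-like, with 7 of 10. Cluster 2 (31 and 1 cells) had 9 basal and 5.5 of 10 luminal markers. Cluster 4 (15 and 12 cells) had the lowest depth, with a median of 285615 reads, and haemoglobin genes among its leading genes. Both are left unnamed.

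Clusters 1 and 3 together held 81.8% of the AW112010 reads of both stages, 86.2% of those of Il33, 79.2% of Ly6d, 69.8% of Mal2 and 56.5% of Fgb. The luminal progenitor-like cluster had Mal2 at 2204 CPM, in 11 of 13 thinned cells, of which pubertal cell 24 gave 51.4% (1151 CPM without it), and its median cell had 238 CPM. There Il33 was at 3.09 CPM, Fgb at 1.91 CPM and Ly6d at 42.2 CPM, and 99.8% of the AW112010 reads came from 1 cell. Mal2 was thus the one of the 5 genes found in most cells of this cluster. Fgb was spread differently, since 28.2% of its reads lay in basal-like cluster 5, where 14 pubertal cells had 2165 CPM (1441 without cell 116) and 13 adult cells 800 CPM (371 without cell 50). AW112010 was also present in those pubertal cells, at 2761 CPM (1807 without cell 124), together with Mal2 at 1458 CPM, Ly6d at 879.9 CPM (490.4 without cell 107) and Il33 at 617 CPM.

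Many of these cells carried markers of both lineages. Of 27 pubertal cells with 10 or more basal markers, 12 also had 5 or more mature luminal markers, and 15 did not. In the 12 mixed cells Fgb was at 2919 CPM, AW112010 at 3262, Mal2 at 1427, Ly6d at 1210 and Il33 at 894 CPM. In the 15 others Fgb was at 11.1 CPM, Ly6d at 71.5, Il33 at 80.9, AW112010 at 377 and Mal2 at 764 CPM. Without the strongest cell for each gene these were 6.82, 8.85, 16.6, 239 and 245 CPM in the same order, while in the mixed cells the lowest such value was that of Il33, at 716 CPM. Fgb, Ly6d and Il33 were thus under 100 CPM in pubertal cells with many basal and few mature luminal markers. In the 15 adult cells of that kind Ly6d was at 60.0 and Il33 at 5.75 CPM. Fgb was at 386 CPM there, with every read from cell 50. Whether the mixed profiles are single cells was not tested.

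**Figure D4:**
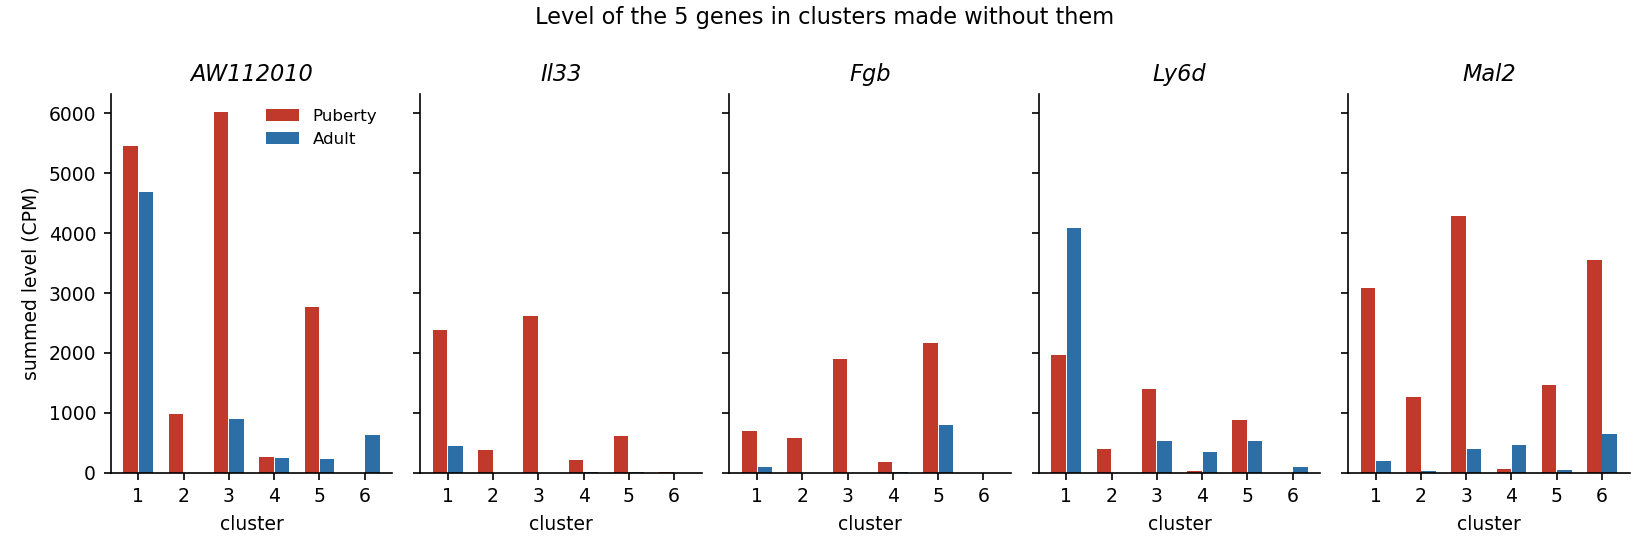
Level of the summed reads of each gene, in CPM, in clusters 1 to 6, which were made without these genes, at puberty (red) and in the adult (blue). Clusters 1 and 3 are mature luminal-like, 5 basal-like and 6 luminal progenitor-like. Clusters hold 6 to 31 pubertal and 1 to 13 adult cells, and no error bar is drawn because each stage is 1 sample. Ly6d in cluster 1 is the one high bar that is taller in the adult.

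Puberty and adulthood were then compared within like cells. The class of cells with 5 or more mature luminal markers, a limit set after the data had been seen, held 63 pubertal and 14 adult cells, of which 25 and 4 lay at the limit and 14 and 4 further cells 1 marker below it. Its median pubertal cell had 1 luminal progenitor and 1 basal marker, and its median adult cell 2 and 3. Cluster 3 was the largest source of its pubertal cells (28 of 63) and cluster 1 of its adult cells (7 of 14). AW112010 was found in 60 of 63 pubertal and 12 of 14 adult thinned cells of this class, at 5279 and 3103 CPM, and cell 41 gave 57.7% of these adult reads. The log2 ratio of AW112010, 1.24 over all cells, was thus 0.77 in this class and 0.19 in its 42 pubertal and 7 adult cells with 3 or fewer basal markers. Without the strongest cell of each stage, which is cell 41 in the adult, it was 1.67 and 1.31, so whether it passed 1 within like cells turned on that cell. Ly6d was found in 49 of 63 and 13 of 14, at 1423 and 2601 CPM, and was thus higher in the adult cells of this class. Without the strongest cell of each stage it was at 1264 and 1921 CPM. Il33 was found in 58 of 63 and 2 of 14, at 2226 and 314 CPM, and 95.9% of the adult reads came from cell 41. Fgb was found in 46 of 63 and 3 of 14, at 1914 and 325 CPM, and adult cell 7 gave 80.2% of the latter (67.8 CPM without it). Mal2 was found in 57 of 63 and 10 of 14, at 3074 and 403 CPM, and adult cell 24 gave 48.4% of the latter (236 CPM without it). For both genes and for Il33 (15.2 CPM without cell 41), leaving out the strongest adult cell widened the gap.

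A like contrast was seen in clusters 1 and 3, which do not depend on that limit. Il33 was detected in 48 of 53 pubertal cells at 2514 CPM and in 1 of 11 adult cells (0.230% to 41.3%) at 353 CPM. Fgb was detected in 35 of 53 and 1 of 11 cells, at 1336 and 71.7 CPM, and Mal2 in 50 of 53 and 8 of 11, at 3727 and 235 CPM. AW112010 was held by 52 of 53 and 10 of 11 cells, at 5764 and 3930 CPM, and Ly6d by 42 of 53 and 11 of 11, at 1669 and 3381 CPM. The keratin genes Krt8 (1288 and 1279 CPM) and Krt18 (3264 and 2824 CPM) and the receptor gene Pgr (153.1 and 126 CPM) were close between these pubertal and adult cells, whereas Epcam (1176 and 2105 CPM) was higher in the adult ones. Foxa1 (233 and 393 CPM) and Esr1 (69.9 and 629 CPM) rested on adult cell 28, without which the adult values were 132 and 152.5 CPM. Krt8 and Krt18 have pseudogenes, so their values are uncertain. Every adult read of Il33 and Fgb in these clusters, and 53.4% of those of AW112010 (2236 CPM without it), came from cell 41. Without cell 40, adult Mal2 was at 147.1 CPM. Adult mature luminal-like cells thus had AW112010 and Ly6d in nearly every cell, and most had no Il33 or Fgb.

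The genes were also seen together in the same cells. In 119 pubertal cells, 34 had all 5 genes after thinning, 29 had 4, 22 had 3, 13 had 2, 13 had 1 and 8 had none. In 44 adult cells, 1 had all 5, 2 had 4, and 11 had none. Above 40 RPKM, AW112010 and Il33 were found together in 58 pubertal cells, where the product of their shares gives 41.4. AW112010 and Ly6d shared 58 cells (product 39.5), which is 95.1% of the cells with Ly6d and 75.3% of those with AW112010. AW112010 and Fgb shared 40 (26.5), or 97.6% of the Fgb cells and 51.9% of the AW112010 cells. Every pair exceeded its product, the smallest excess in cells being that of Fgb and Mal2 (36 against 25.8). Ly6d and Fgb cells thus lay almost wholly within the AW112010 cells.

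Within the mature luminal class at puberty the counts were close to the products. There, AW112010 and Il33 shared 51 of 63 cells (product 49.5), Il33 and Ly6d 41 (39.6), and Il33 and Fgb 32 (31.4). AW112010 passed in 60 of the 63 cells, so its counts could hardly exceed the products. It was present in all 48 Ly6d cells (product 45.7) and all 38 Fgb cells (36.2), the most that was possible. For its pairs, closeness to the product therefore says little. The largest excess was that of Fgb with Mal2 (35 against 30.8), followed by Fgb with Ly6d (33 against 29.0). The correlation of thinned log2 levels was highest for AW112010 with Ly6d, at a Pearson r of 0.68 over 119 pubertal cells, and it was 0.44 over the 63 mature luminal cells and 0.81 over 44 adult cells. Il33 and Fgb had r of 0.40 over all pubertal cells and -0.00 within the mature luminal class. In the adult the other 9 pairs had r of 0.25 or less. No label ties a cell to a mouse or a chip, so the values are descriptive.

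**Figure D5:**
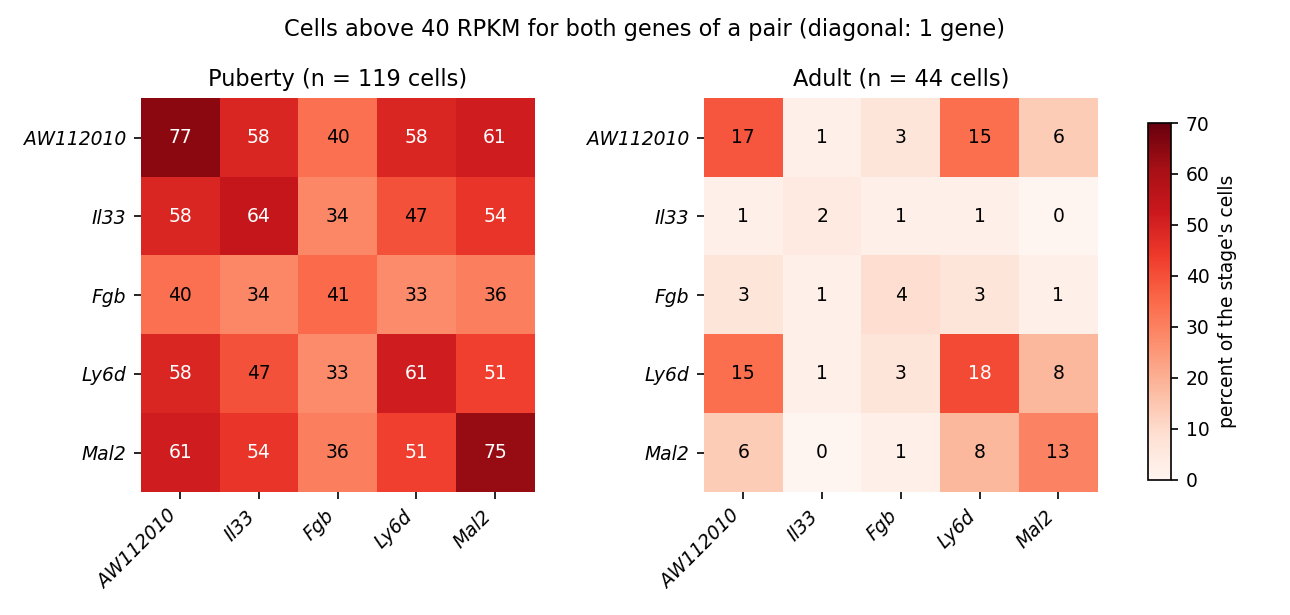
Number of cells above 40 RPKM for both genes of a pair, and for 1 gene on the diagonal, at puberty (left, 119 cells) and in the adult (right, 44 cells). Colour gives the percent of the cells of the stage. AW112010 with Ly6d (15 cells) is the fullest adult pair, and Il33 with Mal2 is empty in the adult.

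The genes whose levels were most like each of the 5 across pubertal cells were sought among 4779 genes detected in at least 20% of thinned cells, for which the median r lay between 0.05 and 0.06. AW112010 was most like Tlcd4 (r = 0.72), Wfdc2 (0.70), the calcium-binding protein gene S100a6 (0.69), Ly6d (0.68) and the transcriptional co-regulator gene Cited1 (0.65). Il33 was most like Areg (0.66), Cited1 (0.64), AW112010 (0.58), the transcription factor gene Sox9 (0.58) and Tlcd4 (0.57). Fgb was most like the uroplakin gene Upk3a (0.55), Cited1 (0.54), AW112010 (0.52), Tlcd4 (0.48) and the translation initiation factor gene Eif2s1 (0.48). Cited1 and Areg are among the mature luminal markers. Ly6d was most like AW112010 (0.68), the growth factor gene Ptn (0.56), Cystm1 (0.56), Mboat1 (0.55) and Tlcd4 (0.55). Mal2 stood apart, with Wfdc2 (0.56), Tagln2 (0.51), the mitochondrial ribosome gene Mrpl14 (0.49), the claudin gene Cldn10 (0.48) and Commd3 (0.47). In 44 adult cells AW112010 had r of 0.73 with Tlcd4 and 0.77 with Cited1, and Ly6d had 0.74 with Ptn and 0.75 with Tlcd4. The adult r of the 5 genes nearest to Mal2 ran from -0.15 to 0.08.

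The levels of the fibrinogen chains differed. Fibrinogen is built from alpha, beta and gamma chains, encoded by Fga, Fgb and Fgg. Fga had 1 pubertal read and no adult read. Fgg went from 3.27 CPM before puberty to 809 CPM in pubertal and 1154 CPM in adult cells, where 63.6% of thinned cells carried it, against 42.9% at puberty. Thus Fgg was highest in the adult, while Fgb was 4.40-fold higher at puberty. Fgb and Fgg were together in 37 of 119 pubertal cells (product 28.7), with r of 0.28, and in 3 of 44 adult cells (2.55). Of 12 genes of fibrinogen and clotting, other than Fgb, 10 reached 10 CPM at either stage and were compared between puberty and adult; 0 were higher and 6 lower at puberty by a log2 ratio of 1, with a median of -1.65. The share of all genes lower at puberty by that ratio was 20.7%. The tissue factor gene F3 (495 and 320.4 CPM) and the thrombomodulin gene Thbd (156.5 and 122 CPM) were close to each other, and the urokinase gene Plau was at 15.9 CPM at puberty and 136 in the adult. Hepatocyte markers were at or near 0 beside Fgb: of 10, Alb had 40 pubertal reads, 39 of them in 1 cell, Apoa1 4.35 and Apob 2.37 CPM, and Fgg was the single one to reach 10 CPM.

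For Il33, 12 genes of interleukin-1 and IL-33 signalling were followed, of which 7 were compared. Of these, 4 were higher and 2 lower in pubertal than in adult cells, the median log2 ratio being 2.02, where 28.4% of all genes compared were higher and 20.7% lower. Il1r1, which encodes the receptor of interleukin-1, was at 531 CPM at puberty and 100.4 in the adult (log2 ratio 2.35). The kinase gene Irak4 had 10471 pubertal and 307 adult reads (2.88). Irak1, a kinase of the same pathway, was at 78.0 and 235.5 CPM (-1.53). Il1rl1, which encodes the receptor of Il33 itself, had 8 pubertal reads and no adult read. Il33 and Il1r1 were together in 50 pubertal cells (product 48.7), with r of 0.26.

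Ly6d was not alone in its family. Of 19 other genes of the Ly6 and uPAR family, 8 were compared, and 2 were higher and 1 lower in pubertal than in adult cells, the median being -0.49, beside the same shares of all genes. Ly6e was at 2899 CPM at puberty and 5562 in the adult, Ly6a, known as Sca-1, at 959 and 1656 CPM, and Ly6c1 at 287 and 206 CPM. The urokinase receptor gene Plaur was at 206 and 44.7 CPM (log2 ratio 2.09). Ly6 genes are close copies of each other, and how shared reads were split is not given in the sources used here, so their values are uncertain. Relative to pre-puberty, 7 of these 8 genes were higher at puberty, a stage contrast in which 24% of all genes were.

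Around Mal2, 10 of 14 further genes of the MAL and MARVEL family were compared, and 4 were higher and 2 lower in pubertal than in adult cells, the median being 0.29, beside the 28.4% and 20.7% of all genes. The tight junction gene Ocln was at 91.1 CPM at puberty and 1.39 in the adult (log2 ratio 3.91), Myadm at 185 and 142.5 CPM and Marveld3 at 85.3 and 93.3 CPM. Cmtm6 was at 39.5 and 184 CPM (-2.09). Mal itself, a myelin protein gene, fell outside this pattern, with 773 CPM before puberty, 34.6 CPM in pubertal cells and 1 read in adult ones.

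For AW112010, 20 interferon-induced genes were taken, of which 14 were compared, with 3 higher and 3 lower in pubertal than in adult cells and a median of -0.51, again beside 28.4% and 20.7% of all genes. The most abundant were B2m (1652 and 2728 CPM), Ifitm3 (1162 and 1858 CPM) and Irf1 (275 and 290 CPM). Against pre-puberty, 3 of 16 were higher and 7 lower at puberty, with a median of -0.48, where 24% and 21.4% of all genes were.

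Marker lists were compared between puberty and the adult in the same way, and their counts are to be read against the 28.4% of all genes that were higher and the 20.7% that were lower at puberty. Of 10 mature luminal markers 0 were higher and 3 lower at puberty, with a median log2 ratio of -0.30: Prlr was at 2928 and 5044 CPM, Areg at 717 and 548, and Cited1 at 649 and 641.5. Of 9 luminal progenitor markers compared 0 were higher and 2 lower (median -0.44), led by Csn3 at 2669 and 3022 CPM, Wfdc18 at 1373 and 1155 and Trf at 1200 and 1727. Of 15 basal markers 1 was higher and 10 lower (median -1.29), with Acta2 at 1636 and 3443 CPM and Krt14 at 224.5 and 829.8. Of 15 epithelial markers 2 were higher and 0 lower (median 0.27), with Epcam at 941 and 1454 CPM and Cldn4 at 241 and 39.7. Of 10 luminal markers 1 was higher and 1 lower (median 0.24).

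Markers of other cells were also counted. Of 9 Schwann markers compared 6 were higher and 1 lower at puberty than in the adult (median 1.66), with Pmp22 at 884 and 106 CPM and Mbp at 143 and 23.9; the median cell had 1 of 14 at both stages. Of 10 fibroblast markers 3 were higher and 1 lower (median 0.69), with Dcn at 843 and 857 CPM, Col3a1 at 529 and 266 and Mfap5 at 487 and 425. Of 4 endothelial markers compared 1 was higher and 2 lower (median -0.59), led by Kdr at 31.8 and 0.857 CPM. Of 3 immune markers compared 0 were higher and 3 lower (median -2.92), each found in 2.27% of adult cells, and Ptprc, the pan-leukocyte marker, had 7 pubertal reads and none in the adult. The part of these cells in the levels of the 5 genes was not tested. The 9 immune markers summed to 0.219 CPM at puberty and 125 CPM in the adult.

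Near absence at pre-puberty was counted over cells that mostly had few of the 15 epithelial markers. Of the 116 cells, 67 had none of the 15 epithelial markers and 7 had 5 or more. Mal2 was above 40 RPKM in 2 of the 7: cell 55, at 2583 CPM with 8 of 10 luminal progenitor markers, and cell 112, at 420 CPM with 13 of 15 basal markers. Cell 55 alone gave 72.6% of the pre-pubertal Mal2 reads, and without it the level was 2.91 CPM. Cell 110 had 8 of 10 luminal and 4 of 10 mature luminal markers, more of the latter than any other pre-pubertal cell, and no read of any of the 5 genes. No pre-pubertal cell reached 5 mature luminal markers, so the 5 genes could not be compared between pre-puberty and puberty within that class. The single Fgb read came from cell 47, which had no epithelial marker.

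Cells are numbered within each stage, and the labels do not say what the numbers stand for. Between the first and the last 68 pubertal numbers, AW112010 was at 2448 and 4190 CPM, Fgb at 721 and 1388, Il33 at 1512 and 1253, Ly6d at 1035 and 975, and Mal2 at 2644 and 2300 CPM. In the adult the first and the last 33 numbers gave 3.92 and 214 CPM of Il33, 194 and 285 of Fgb, 906 and 1880 of AW112010, 905 and 1580 of Ly6d, and 259 and 325 of Mal2. Without cell 41, the last 33 adult numbers gave 739 CPM of AW112010, 9.75 of Il33 and 1023 of Ly6d. These subsets are cells of 1 sample and not replicates. AW112010, Il33, Fgb and Mal2 were higher in both pubertal subsets than in both adult ones. Ly6d was not, as the adult subset with the higher numbers lay above both pubertal ones, and between them without cell 41. The adult subset with the lower numbers lay under both.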

How the data were processed

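Deposited counts of read pairs per gene were used for 346 single cells, 1 file per cell. To make these counts the authors aligned the pairs to mm10 using Subread and summed them over Entrez genes by featureCounts, whose inbuilt RefSeq gene models were taken (Subread 1.4.6 per the submitters' processing notes; the version of featureCounts and the treatment of reads shared by similar genes are not given in the sources used here). The libraries (Nextera XT) do not mark strand, and amplified copies were counted separately. The authors' deposited gene lengths served to turn counts into RPKM.

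Symbols came from the RefSeq table of GRCm38.p6, which left 1904 of 27179 genes unmatched. With 15 mitochondrial and 121 ribosomal protein genes left out, 25139 remained. Cells with 100000 or more reads on these and 1500 or more genes were kept, by the limits of the study: 279 of 346. The paper reports more pubertal and adult cells after its filter than were kept here. Depths of the kept cells ran from 109387 to 1188587 reads. No 2 cells held identical values. No doublet caller was run, since per the study's methods captured cells were viewed under a microscope.

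As no label ties a cell to a mouse, each stage was 1 sample, and no p-value was computed. Reads were summed per stage, with exact Poisson and Clopper-Pearson binomial intervals at 95% and a limit of 3 counts where none was found. Shares, marker numbers, correlations and clusters (Ward, 20 principal components) used cells thinned to 100000 reads, on log2(CPM + 10) where a level was needed. Log2 ratios had 5 CPM added, and a gene was compared where it reached 10 CPM at either stage. The mature luminal limit of 5 markers was chosen after the data had been seen. The 5 genes and the 15 lists (188 entries, all matched) were chosen with earlier results of these data known. Genes named were the 5, for each the 5 most like it, the next 3 in the ranking, defining markers, and per list the 3 highest at puberty plus those past 100 CPM with a log2 ratio beyond 2. Other named genes were chosen after their values were seen. A gene that this rule names is not reported here. Scripts were tested on simulated data. Python 3.11.15, numpy 2.4.6, scipy 1.17.1, pandas 2.3.3, scikit-learn 1.9.0 and matplotlib 3.10.9 were used. Alternatives covered filters, thinning, scaling, the added CPM, thresholds, clusters and leaving out the strongest cell.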

Additional observations from a re-analysis of the deposited data

Results flagged for a closer look

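Reads of these genes were also found in cells that the comparisons did not use. In the 28 pre-pubertal cells below the coverage minimum, Il33 stood at 28.2 CPM and Mal2 at 45.1 CPM, while the 116 kept pre-pubertal cells had no read of Il33. All of these reads came from cell 77, which had 99165 reads, just under the minimum, and 4323 genes. It held 15 reads of Il33, 24 of Mal2 and 2 of AW112010. Cell 77 had 0 of 15 epithelial and 1 of 10 mature luminal markers and 9 of 14 Schwann markers. How these reads came to be in that library was not tested.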

How the results depend on the processing

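A level or ratio was counted as moved past a factor of 1.5 and a share once outside its 95% exact binomial interval. No result reversed; 297 values under alternatives did not move by these limits, and 59 did. Without the strongest cell, adult levels were 824 CPM for AW112010, 6.80 for Il33 and 118 for Fgb, and pre-pubertal levels 2.91 for Mal2 and 0 for Fgb. The log2 ratios of puberty over adult were then 1.91 for AW112010, 6.76 for Il33 and 2.94 for Fgb, and that of Mal2 over pre-puberty 8.23. With every cell given equal weight, Il33 was at 55.4 CPM in the adult (log2 ratio 4.51) and Mal2 at 26.0 CPM at pre-puberty (6.29). Without the coverage minimum pre-pubertal Il33 was at 0.364 CPM, and with a stricter one Mal2 was at 3.11 CPM (8.26). In cells of 200000 to 600000 reads the ratios over the adult were 2.78 for AW112010, 5.71 for Il33, 1.32 for Fgb and 5.10 for Mal2, and that of Mal2 over pre-puberty 8.29. With 1 CPM added, the ratios over pre-puberty were 11.70 for AW112010, 10.43 for Il33, 10.02 for Fgb and 9.97 for Ly6d; with 10 CPM they were 8.39, 7.12, 6.74 and 6.66. Above 40 RPKM the pubertal shares were 53.8% for Il33, 34.5% for Fgb and 63.0% for Mal2, and 29.5% for adult Mal2; 56.3% of pubertal cells then held 3 or more of the 5 genes. Without thinning the pubertal shares were 83.2% for Fgb and 88.2% for Mal2, and 82.4% held 3 or more. With 4 clusters, the leading cluster held 81.8% of the AW112010 reads, 86.2% of Il33, 79.2% of Ly6d and 69.8% of Mal2, since it joined clusters 1 and 3. By Spearman's rho, 3 of the 5 nearest genes were shared with the Pearson result for each of Il33, Fgb and Ly6d.

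Of the alternatives chosen after seeing the data, 100 CPM or more gave pubertal shares of 53.8% for Il33, 31.9% for Fgb and 63.0% for Mal2, and adult shares of 36.4% for Ly6d and 31.8% for Mal2. In the mature luminal class the ratio of Il33 over the adult was 2.80. In its cells with 3 or fewer basal markers (42 pubertal, 7 adult) the ratios were 0.19 for AW112010, 2.15 for Il33, 3.81 for Fgb and -1.12 for Ly6d. Without the strongest cell of each stage, the ratios in the mature luminal class were 6.67 for Il33 and 4.56 for Fgb, and in its cells with few basal markers 5.94 for Il33, 8.11 for Fgb and 3.77 for Mal2. The cause of these shifts was not tested, except where the construction shows it. No paired analysis was possible because the recurring numbers only count cells within a stage, and each stage is 1 sample with no test. The adult, with 44 kept cells, limits rare carriers most: a gene seen in none of them could still be in up to 6.82%.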
